A study of Mus musculus with 15 samples.

Results

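Keratins are the intermediate filament proteins of epithelial cells, and the 10 keratin genes Krt5, Krt7, Krt8, Krt14, Krt15, Krt17, Krt18, Krt19, Krt20 and Krt23 were taken by symbol from a table of read counts for 24421 mouse genes in whole kidney. The genes were chosen by their family and by levels already seen across these same groups, so their differences between groups are given as a description and not as a test. The kidneys came from wild-type (WT) mice at day 14 after surgery. The samples formed 3 groups: obstruction of a ureter with a Si-based diet (UUO_Si, n = 6), obstruction with a normal diet (UUO, n = 6) and a sham operation with a normal diet (sham, n = 3). Unilateral ureteral obstruction (UUO) means that urine from a kidney is blocked at its ureter, which dilates the tubules and the renal pelvis, injures the tubular epithelium and leads to fibrosis. No sham kidney on the Si-based diet was included, so the diet was compared in obstructed kidneys alone. The age and sex of the mice, the dose and start of the diet, and whether each library came from a separate animal are not stated in the sources used. The p values therefore measure the spread between these samples.

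A keratin filament is built from equal parts of a type I and a type II keratin, and an epithelium is recognised by the pairs it makes. The type II keratins Krt7 and Krt8 and the type I keratins Krt18 and Krt19 are simple keratins, made by single-layered epithelia such as the collecting duct, and Krt8 and Krt18 are the most general pair. Krt20 is a type I keratin of intestinal epithelium and of the umbrella cells that cover the urothelium, the lining of the renal pelvis and ureter, and in mouse kidney it is also known as a marker of injured tubule. The type II keratin Krt5 and its type I partner Krt14, with Krt15, mark basal cells of layered epithelia such as epidermis and urothelium, and Krt17 is a type I keratin of wounded and proliferating epithelia. Krt23 is a further type I keratin. In the GENCODE M21 annotation of mouse build GRCm38, Krt5, Krt7, Krt8 and Krt18 lay on chromosome 15 and the other 6 on chromosome 11, where the type I genes other than Krt18 are clustered. Krt8 (chr15:101996698-102004482, minus strand) and Krt18 (chr15:102028180-102032027, plus strand) started 23.7 kb apart, with no annotated gene between them.

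The bases before the transcription start are shown for a keratin of each set whose start differed least between RefSeq and GENCODE: Krt20, the simple keratin Krt18 and the basal keratin Krt5. The distances between both annotated starts were 3, 36 and 7 bases. Each is the 250 bases before the RefSeq start in GRCm38.p6, written 5′ to 3′ on the strand of the gene, with motif matches in capitals. RefSeq promoters were matched for 7 of the 10 keratins. The motifs were the TATA box (TATAAA), the AP-1 site (TGANTCA), the GC box (GGGCGG) and the TEAD site (GGAATG), searched on both strands; they were picked after the sequences had been seen.
Krt20 (chr11:99438154-99438403, minus strand): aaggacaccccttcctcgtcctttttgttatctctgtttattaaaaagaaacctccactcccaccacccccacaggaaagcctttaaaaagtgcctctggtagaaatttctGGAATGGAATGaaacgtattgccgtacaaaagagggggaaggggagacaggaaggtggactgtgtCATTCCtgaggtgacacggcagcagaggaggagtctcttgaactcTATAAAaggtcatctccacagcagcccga
Krt18 (chr15:102027966-102028215, plus strand): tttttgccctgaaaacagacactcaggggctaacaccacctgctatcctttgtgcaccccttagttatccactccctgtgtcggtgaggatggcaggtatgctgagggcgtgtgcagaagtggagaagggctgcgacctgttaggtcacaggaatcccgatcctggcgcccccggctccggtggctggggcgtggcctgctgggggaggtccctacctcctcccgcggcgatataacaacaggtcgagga
Krt5 (chr15:101712906-101713155, minus strand): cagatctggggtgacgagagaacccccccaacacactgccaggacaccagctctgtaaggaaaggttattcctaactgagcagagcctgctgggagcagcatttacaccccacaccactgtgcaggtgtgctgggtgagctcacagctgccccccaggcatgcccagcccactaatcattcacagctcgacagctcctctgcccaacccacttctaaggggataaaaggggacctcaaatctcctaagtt
The Krt20 window held TATAAA at 29 to 24 bases before the start. It also held GGAATG 3 times, on the plus strand of the gene from 139 and from 134 bases before the start, where the copies overlap by a single base, and on the opposite strand from 74 bases before it. Among 32851 RefSeq windows of the same length, 12.4% held TATAAA and 12.6% held GGAATG at least once, while 0.0913% held GGAATG 3 or more times. None of the 4 motifs was found in the Krt18 and Krt5 windows. Only exact matches were searched, so near matches such as gataaa in the Krt5 window were not counted. GGAATG was in 2 of the 7 keratin windows, that of Krt20 and that of the basal keratin Krt14, at 66 to 61 bases before the start. TGANTCA, present in 6.75% of all windows, was in none of the 7 keratin windows, and GGGCGG, present in 32.7%, was in the Krt7 window alone. A match describes these letters and is not evidence that a factor binds.

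The libraries held 7754724 to 11465936 counts in UUO_Si, 11151023 to 15422613 in UUO and 5526642 to 8308121 in sham, with the lowest total in sham and the UUO_Si totals mostly below those of UUO. Levels are counts per 1000000 (CPM) after library sizes had been scaled with TMM, a method that sets the bulk of genes equal between libraries. Of the 24421 genes, 16752 passed a filter on low counts and were tested with edgeR's quasi-likelihood test, called at an adjusted p under 0.05. The filter asked for at least 1.01 CPM in 3 libraries. All 10 keratins passed it, but Krt5, Krt14, Krt17 and Krt20 did so only with the obstructed libraries, since 2, 1, 0 and 1 of the 3 sham libraries reached that level. The choice of genes tested therefore favoured a higher level in obstruction for these keratins. The 3 sham libraries together held 2 counts of Krt17 and 19 of Krt20. Earlier work on these data had found counts in most olfactory and vomeronasal receptor genes in 4 libraries (UUO_Si replicate 6, UUO replicates 5 and 6 and sham replicate 3). The obstructed libraries among them are also those whose sample names carry the codes RM6 and RM7. Fold differences of keratins that move by over 1.5 times without the 4 libraries are given beside the results. Tubule and podocyte markers marked the tissue as kidney and were lower in obstruction: the summed level of 7 genes such as Lrp2 and Umod was 1767 to 3380 CPM in UUO_Si, 1959 to 2423 CPM in UUO and 14528 to 17111 CPM in sham. In such whole-tissue RNA, a change in the number of cells of a type and a change in RNA per cell cannot be told apart.

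Obstructed kidneys of both diets held more of 9 of the 10 keratins than sham kidneys. The differences ran from 1.27-fold for Krt7 in both diets to 72.7-fold for Krt17 in UUO. Krt17 was near 0 in sham, and the next largest difference was 54.1-fold for Krt20 in UUO_Si. For UUO_Si against sham, 9 of 10 keratins were called higher, against 27.2% of all genes tested, and 8 of 10 had groups that did not overlap, against 24.0%. For UUO against sham the counts were also 9 of 10, against 27.5%, and 8 of 10, against 24.6%. The keratins were chosen with these contrasts in view, so nothing is read from these counts. Both contrasts share the 3 sham libraries. Krt23 was the keratin not called, and Krt7 and Krt23 were those with overlapping groups. The median log2 fold change over all genes tested was -0.04 in both contrasts.

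**Figure D1:**
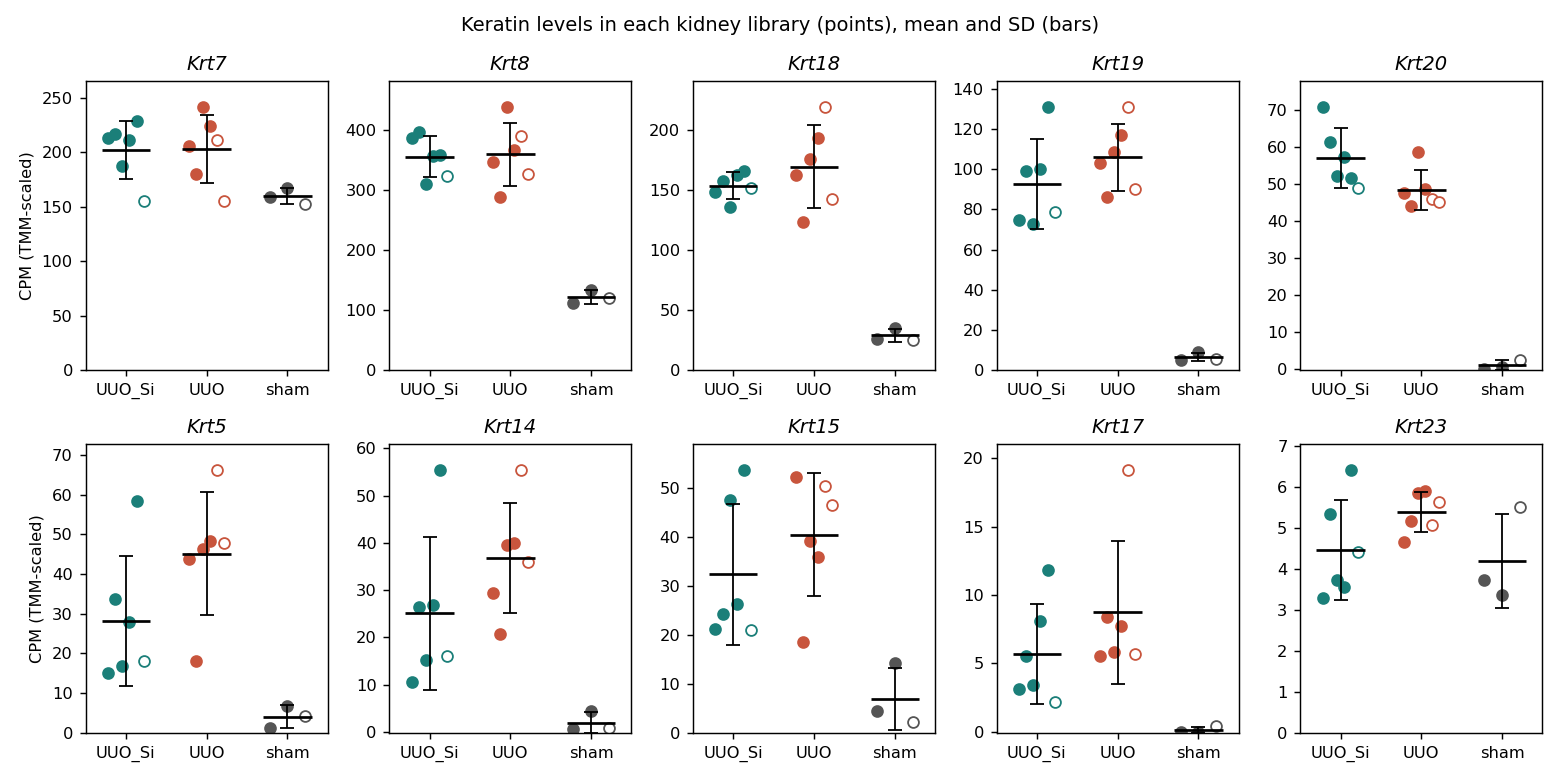
Level of each of the 10 keratins in CPM (linear axes from 0, a scale of its own for each gene) in UUO_Si, UUO and sham kidneys. Each point is a library, lines and bars are mean and SD, and open points are the 4 libraries with counts in most olfactory and vomeronasal receptor genes; Krt20 lay between 48.9 and 70.7 CPM in UUO_Si, between 44.2 and 58.8 CPM in UUO and at no more than 2.65 CPM in sham.

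Among the simple keratins the difference was smallest for Krt7 and larger for Krt8, Krt18 and Krt19. Krt7, the type II keratin of ducts and urothelium, was at 155 to 229 CPM in UUO_Si (median 212), 155 to 241 CPM in UUO (median 208) and 159, 167 and 153 CPM in sham. The obstructed groups reached below the highest sham kidney. The log2 fold change of Krt7 was 0.34 ± 0.14 (SE) for UUO_Si against sham and 0.35 ± 0.14 for UUO against sham, the smallest of the 9 called. Its call was lost in 11 of 25 and in 8 of 25 other settings, among them a stricter filter on low counts (adjusted p = 0.0687 and 0.0662) and the removal of sham replicate 3 (adjusted p = 0.117 and 0.108).

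Krt8, the general type II partner of Krt18, had the most counts of the 10 genes in obstructed kidneys. Its level was 310 to 397 CPM in UUO_Si (median 357), 288 to 438 CPM in UUO (median 356) and 111, 134 and 121 CPM in sham. Every obstructed kidney lay above every sham kidney. The log2 fold change was 1.54 ± 0.13 in UUO_Si and 1.56 ± 0.13 in UUO, or 2.95-fold. Krt18, the type I partner, was at 136 to 166 CPM in UUO_Si (median 155), 124 to 219 CPM in UUO (median 169) and 26.1, 35.3 and 25.6 CPM in sham. These groups did not overlap sham either, and the log2 fold change was 2.41 ± 0.17 in UUO_Si and 2.55 ± 0.18 in UUO, or 5.84-fold.

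Krt19, a duct keratin that lacks the tail of other keratins, had the lowest level per kb of the simple set in sham kidneys. It was at 72.8 to 131 CPM in UUO_Si (median 88.8), 86.3 to 131 CPM in UUO (median 106) and 5.02, 8.95 and 5.68 CPM in sham. The lowest obstructed kidney was therefore several times above the highest sham kidney. Its log2 fold change was 3.82 ± 0.25 in UUO_Si and 4.02 ± 0.25 in UUO, or 16.2-fold. Reads of Krt8 and Krt19 came in fractions in 4 libraries each, so part of their counts was shared with similar sequences. Krt7, Krt8 and the basal keratin Krt5 overlap genes on the opposite strand (Gm671, Gm36026 and the miRNA gene Gm44323), and since the strand setting of the counting was not given, their reads could not be told apart.

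Because Krt18 and Krt19 differed by more than Krt7 and Krt8, the balance of the simple keratins differed too. Levels of different genes are compared per kilobase of transcript, as CPM per kb. Krt7 has the longest transcript of these keratins (4.09 kb), and its RefSeq and GENCODE starts lay 1360 bases apart. The ratios, ranks and shares that include Krt7 therefore depend on the annotated length. The ratio of Krt8 to Krt18 per kb was 1.70 ± 0.148 in UUO_Si, 1.58 ± 0.20 in UUO and 3.13 ± 0.340 in sham (SD). It ran from 1.56 to 1.92 in UUO_Si, from 1.31 to 1.83 in UUO and from 2.78 to 3.46 in sham, with no overlap of the obstructed groups and sham. The ratio of the type II genes Krt7 and Krt8 to the type I genes Krt18, Krt19 and Krt20 was 1.19 ± 0.100 in UUO_Si, 1.12 ± 0.107 in UUO and 4.13 ± 0.488 in sham. In obstructed kidneys the type II and type I transcripts of this set were thus close to equal per kb, while sham kidneys held more type II transcripts.

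Krt20 differed from sham by more than any of the simple keratins. It was at 48.9 to 70.7 CPM in UUO_Si (median 54.8), 44.2 to 58.8 CPM in UUO (median 46.8) and 0.143, 0.639 and 2.65 CPM in sham. The obstructed kidneys formed a narrow band far above sham, and the highest sham value came from replicate 3. The log2 fold change was 5.76 ± 0.35 in UUO_Si, or 54.1-fold, and 5.52 ± 0.35 in UUO, or 45.9-fold. Without sham replicate 3 the differences were 146.5-fold and 124-fold, and without the 4 libraries with receptor-gene counts they were 151-fold and 128-fold. They were smaller without sham replicate 1, at 36.3-fold and 30.8-fold. The size of the Krt20 difference thus rested on a sham level of few counts, while the obstructed level did not.

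The basal keratins were also higher in obstruction, and they varied more from kidney to kidney than the simple keratins. Krt5 was at 15.1 to 58.3 CPM in UUO_Si (median 22.9), 18.0 to 66.2 CPM in UUO (median 47.1) and 1.15, 6.87 and 4.17 CPM in sham. Its partner Krt14 was at 10.6 to 55.4 CPM in UUO_Si (median 21.2), 20.8 to 55.4 CPM in UUO (median 37.7) and 0.716, 4.48 and 0.758 CPM in sham. Both pairs of ranges lay above sham without overlap, and sham replicate 2 was the highest sham kidney for both genes. Krt15 was at 21.1 to 53.6 CPM in UUO_Si (median 25.3), 18.5 to 52.2 CPM in UUO (median 42.9) and 4.44, 14.2 and 2.27 CPM in sham. For Krt15, too, sham replicate 2 stood highest and the groups did not overlap. Reads of Krt5, Krt14 and Krt15 came in fractions in 9, 3 and 2 libraries, and those of Krt17 in 1, UUO replicate 5.

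The fold differences of Krt5, Krt14 and Krt15 moved with that sham kidney. For UUO_Si against sham the difference was 7.02-fold for Krt5, 12.4-fold for Krt14 and 4.56-fold for Krt15, and without sham replicate 2 it was 11.3-fold, 33.7-fold and 9.39-fold. For UUO against sham it was 11.3-fold, 18.3-fold and 5.73-fold, and without sham replicate 2 it was 18.0-fold, 49.8-fold and 11.8-fold. The standard errors on the log2 scale in UUO were 0.50 to 0.64 for Krt5, Krt14 and Krt15 and 1.02 for Krt17, against 0.13 to 0.25 for the simple keratins. The summed level of 7 urothelial markers was also highest in sham replicate 2, at 30.5 CPM, against 12.3 and 15.2 CPM in the other sham kidneys.

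Krt17, a keratin of wounded epithelium, was close to absent from the sham libraries. It was at 2.17 to 11.8 CPM in UUO_Si (median 4.47), 5.54 to 19.1 CPM in UUO (median 6.78) and 0, 0 and 0.379 CPM in sham. The ratio of summed counts was 49.7 for UUO_Si against sham (95% counting interval 13.6 to 412) and 84.7 for UUO against sham (23.4 to 700.5). The interval covers counting error only. The fitted difference was 46.6-fold for UUO_Si against sham and 72.7-fold for UUO against sham. With 2 sham counts, the fitted fold depended on which sham library was used. It was 489-fold and 765-fold without sham replicate 3, which held both counts, and 30.5-fold and 47.7-fold without sham replicate 1. Without the 4 libraries with receptor-gene counts, which include that sham replicate 3, it was 517-fold and 565-fold. Krt23 stood apart from the other keratins: it was at 3.28 to 6.41 CPM in UUO_Si (median 4.07), 4.66 to 5.89 CPM in UUO (median 5.39) and 3.73, 3.36 and 5.49 CPM in sham. All 3 groups overlapped, and its log2 fold change was 0.09 ± 0.24 in UUO_Si (95% interval -0.42 to 0.61) and 0.37 ± 0.24 in UUO (-0.14 to 0.88).

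**Figure D2:**
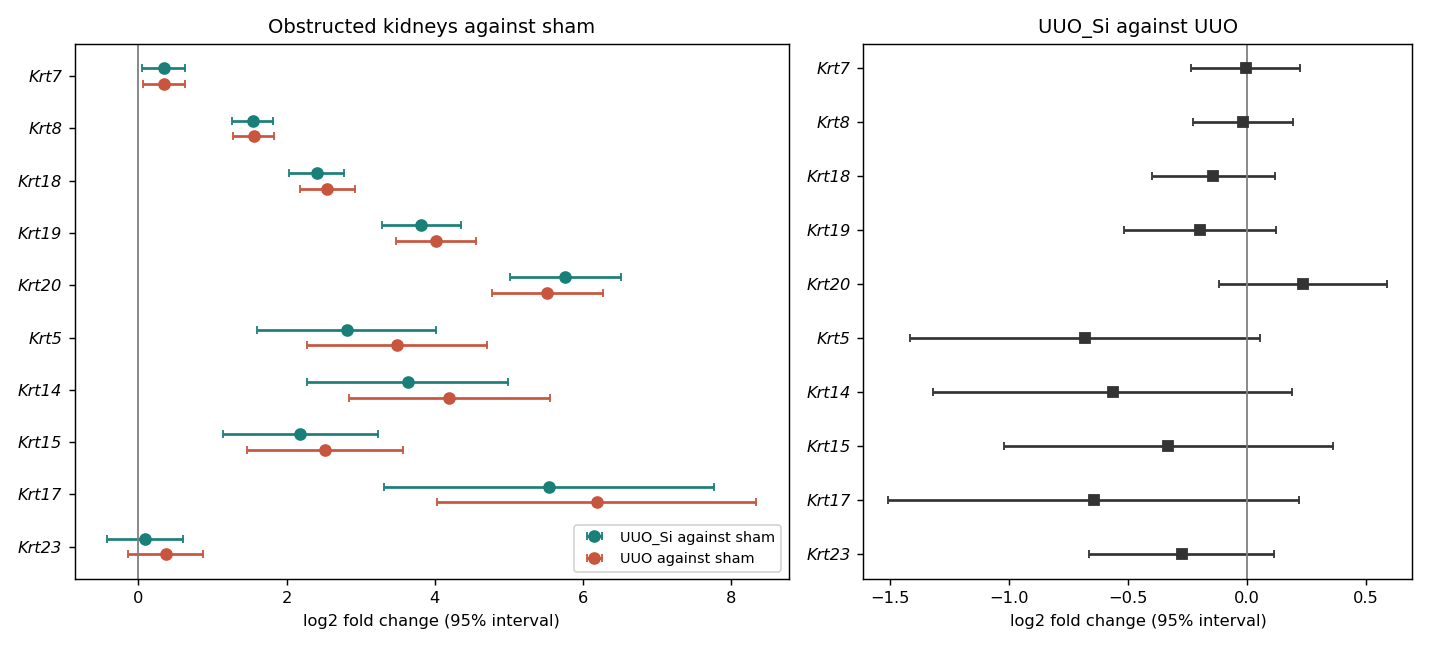
Log2 fold change of each keratin with its 95% interval, for UUO_Si against sham and UUO against sham (left) and for UUO_Si against UUO (right, on a narrower axis). In the left panel the simple keratins run in steps up to Krt19 (3.82 and 4.02) and Krt20 stands at 5.76 and 5.52; in the right panel every interval includes 0.

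Ranked per kb, Krt8 came first in all 3 groups, at 181 in UUO_Si, 183 in UUO and 62.3 CPM per kb in sham. Before division by length, Krt7 stood above Krt8 in sham, at means of 160 and 122 CPM. The first place of Krt8 in sham thus rests on the transcript lengths. The following places differed. In UUO_Si the order after Krt8 was Krt18 (107), Krt19 (58.8), Krt7 (49.4), Krt20 (29.6), Krt15 (19.0), Krt14 (14.8), Krt5 (12.9), Krt17 (3.66) and Krt23 (2.85 CPM per kb). UUO kidneys had the same order, with Krt18 at 118, Krt19 at 67.3, Krt7 at 49.6, Krt20 at 25.1 and Krt15 at 23.8 CPM per kb. In sham kidneys Krt7 (39.0) came second, before Krt18 (20.2), Krt19 (4.16), Krt15 (4.11), Krt23 (2.68), Krt5 (1.85), Krt14 (1.17), Krt20 (0.594) and Krt17 (0.0814 CPM per kb). Neighbours from Krt20 down to Krt23 overlapped in their ranges in both obstructed groups, as did Krt19 and Krt7. In UUO the ranges of Krt8 and Krt18 also overlapped, although Krt8 was above Krt18 in 6 of 6 kidneys, and in sham all neighbours from Krt19 down overlapped.

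Expressed as shares of the summed level per kb of the 10 genes, keratin RNA was mostly simple in every group. The simple set made up 83.0 ± 3.18% in UUO_Si, 80.8 ± 2.19% in UUO and 92.6 ± 2.93% in sham (SD). The basal set made up 10.2 ± 3.94% in UUO_Si, 13.6 ± 2.75% in UUO and 4.99 ± 3.52% in sham, and Krt20 6.23 ± 1.0%, 4.91 ± 0.663% and 0.446 ± 0.542%. The simple shares of obstructed and sham kidneys did not overlap. The basal share ran from 5.93% to 17.3% in UUO_Si and 9.30% to 16.9% in UUO, against 2.89% to 9.05% in sham, so UUO_Si overlapped sham and UUO did not. The summed level itself was 479.5 ± 57.1 CPM per kb in UUO_Si, 518 ± 81.7 in UUO and 136 ± 17.6 in sham. Within the simple set, Krt7 made up 10.3 ± 0.755% of the summed level in UUO_Si, 9.62 ± 1.14% in UUO and 28.9 ± 2.71% in sham.

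**Figure D3:**
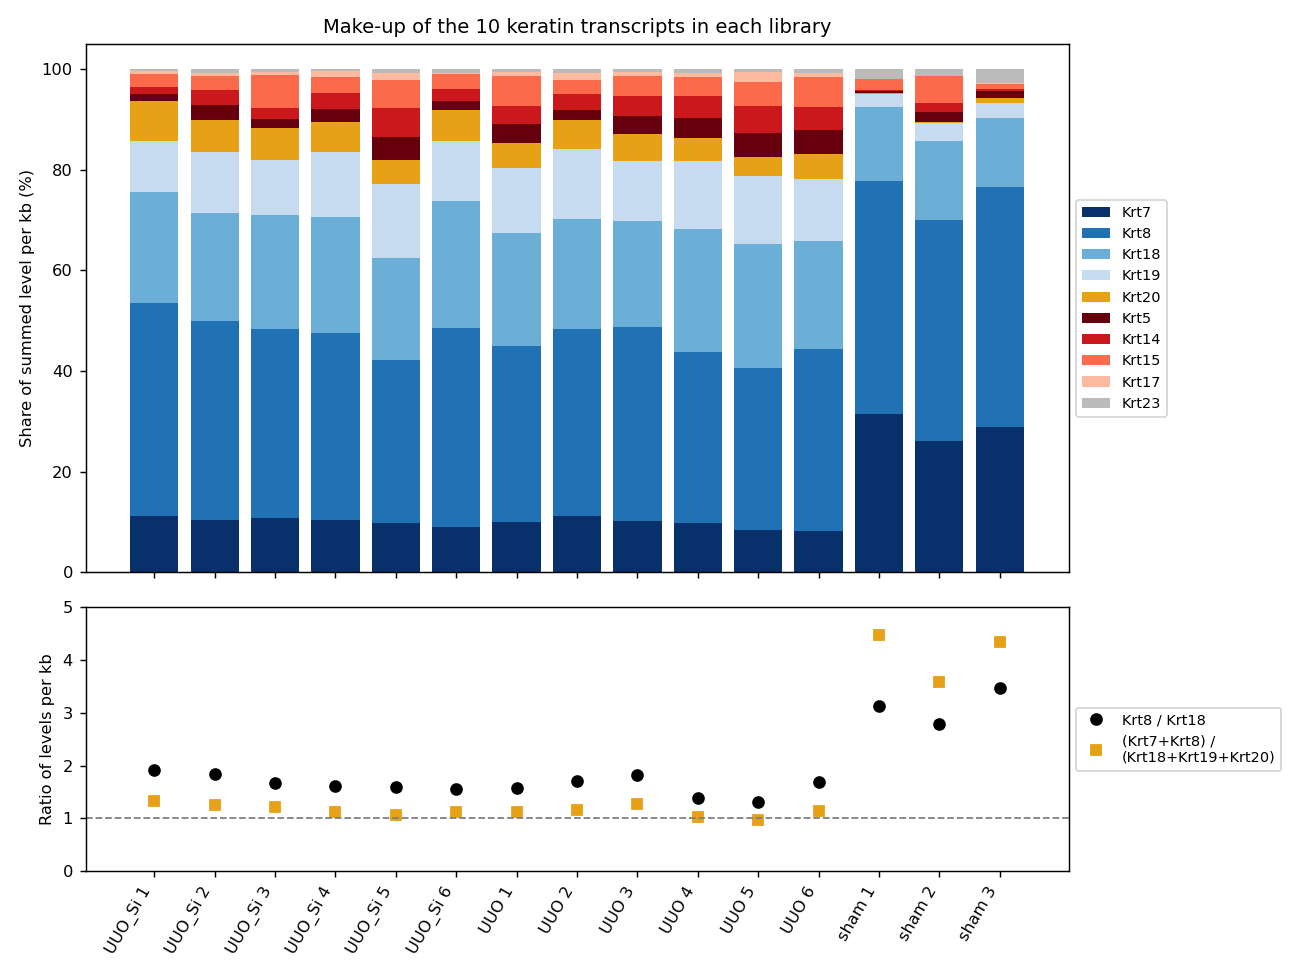
Share of each keratin in the summed level per kb of the 10 genes (%, upper panel) and ratios of levels per kb (lower panel, dashed line at 1) in each library of UUO_Si, UUO and sham. Simple keratins are blue, Krt20 yellow, basal keratins red and Krt23 grey; Krt7 averages 10.3% in UUO_Si and 9.62% in UUO against 28.9% in sham, and the ratio of Krt8 to Krt18 is below 2 in every obstructed kidney.

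The simple keratins were also compared with the basal set and with Krt20 as differences of mean log2 CPM within a library, a description with no test. The simple set exceeded the basal set by 3.38 ± 0.565 in UUO_Si, 2.85 ± 0.333 in UUO and 4.69 ± 0.603 in sham (SD, log2 units). UUO minus sham, this gap differed by -1.84 log2 units, and UUO_Si minus UUO by 0.53, or 0.26 without the libraries coded RM6 and RM7. The simple set exceeded Krt20 by 1.64 ± 0.223 in UUO_Si, 1.96 ± 0.184 in UUO and 5.57 ± 1.56 in sham. UUO minus sham, this gap differed by -3.61 log2 units, or by -4.51 without the 4 libraries with receptor-gene counts, and UUO_Si minus UUO by -0.32. Obstruction thus went with a larger gain of Krt20 than of the mean of the basal set, relative to the simple set. This did not hold for each basal keratin. The fitted log2 fold change of Krt17 was 6.18 in UUO, against 5.52 for Krt20, and 5.54 in UUO_Si, against 5.76. Krt5, Krt14 and Krt15 were below Krt20 in both. The prior count used for log2 CPM also raises low levels most, such as that of Krt17 in sham.

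The diet contrast within obstructed kidneys gave no call for any keratin, nor for any of the 16752 genes tested (0%; edgeR's quasi-likelihood test), where 626 genes (3.74%) had an unadjusted p under 0.05 and DESeq2 called 2. Of the 10 keratins, 9 had a log2 fold change below 0 for UUO_Si against UUO, where 49.7% of all genes did, and each had an adjusted p of 0.999. The simple keratins Krt7 and Krt8 lay close to 0, at -0.00 ± 0.11 (95% interval -0.24 to 0.23) and -0.02 ± 0.10 (-0.22 to 0.19). Krt18 was at -0.14 ± 0.12 (-0.40 to 0.12) and Krt19 at -0.20 ± 0.15 (-0.52 to 0.12). The groups overlapped for every keratin.

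The basal keratins had the widest intervals of this contrast. Krt5 was at -0.68 ± 0.35 (95% interval -1.42 to 0.05), with 5 of 6 UUO_Si kidneys below the UUO median. Krt14 was at -0.56 ± 0.36 (-1.32 to 0.19), Krt15 at -0.33 ± 0.33 (-1.02 to 0.36) and Krt17 at -0.64 ± 0.41 (-1.51 to 0.22). The sample names carry codes whose meaning was not given, RM3 and RM6 within UUO and RM4 and RM7 within UUO_Si. Without the 3 libraries coded RM6 or RM7 (UUO_Si 6, UUO 5 and UUO 6), the values were -0.38 for Krt5, -0.28 for Krt14, -0.08 for Krt15 and -0.12 for Krt17. RM4 and RM3 then still separate the diets, so the code and the diet cannot be told apart. Leaving out UUO_Si replicate 5 alone moved the values away from 0, to -1.02 for Krt5, -0.96 for Krt14, -0.53 for Krt15 and -0.98 for Krt17. Krt20 went the other way, at 0.24 ± 0.17 (-0.12 to 0.59), and all 6 UUO_Si kidneys lay above the UUO median of 46.8 CPM. It was at 0.23 without the RM6 and RM7 libraries. Krt18 was as one-sided in the other direction, with 6 of 6 UUO_Si kidneys below the UUO median. Krt23 was at -0.27 ± 0.18 (-0.66 to 0.12), with 5 of 6 below it, as for Krt14 and Krt19.

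The table held 38 other keratin genes, of which 7 passed the filter. Of these 7, Krt10 and Krt80 alone would have passed it in the sham libraries. In edgeR's quasi-likelihood test, 3 of the 7 were called higher, 2 lower and 2 did not pass in each obstructed group against sham. Of all genes tested, 27.2% were called higher and 25.5% lower in UUO_Si, and 27.5% and 26.4% in UUO, so the share of these keratins called lower was close to that of all genes. Krt4, a keratin of layered mucosal epithelium, was at 1.77 ± 0.870 CPM in UUO_Si, 2.79 ± 0.832 in UUO and 0.422 ± 0.482 in sham. Krt4, Krt16 and Krt12 were the keratins called higher, and no sham library reached the level the filter asked for in any of them, so that filter favoured their calls. Krt10, a keratin of differentiated epidermis, fell to 3.55 ± 0.759 CPM in UUO_Si and 2.84 ± 0.677 in UUO, against 7.24 ± 1.29 in sham. Krt80 fell to 10.1 ± 2.38 CPM in UUO_Si and 11.7 ± 1.67 in UUO, against 16.1 ± 2.39 in sham. Krt83 and Krt222 did not pass.

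Keratin filaments are anchored at desmosomes between cells and at hemidesmosomes on the basement membrane, and the genes of both were followed. Of 9 hemidesmosome genes, 7 rose and 2 fell in both obstructed groups against sham (median log2 fold change 1.16 in UUO_Si and 1.23 in UUO), where 27.2% and 27.5% of all genes tested rose and 25.5% and 26.4% fell. Itgb4, an integrin chain of hemidesmosomes, was at 71.0 ± 13.4 CPM in UUO_Si, 80.5 ± 13.8 in UUO and 22.1 ± 5.17 in sham (edgeR's quasi-likelihood test, adjusted p = 2.21e-06 and 6.27e-07 against sham). It was named for its small p in UUO against sham, so these p values are a description. Lamb3, a laminin chain of the basement membrane, rose by 2.22 ± 0.33 and 2.55 ± 0.33, and the tetraspanin Cd151 by 0.84 ± 0.09 and 0.89 ± 0.09 on the log2 scale in UUO_Si and UUO. Lama3, another laminin chain, fell to 72.8 ± 18.2 CPM in UUO_Si and 75.8 ± 8.07 in UUO, against 192 ± 44.5 in sham, and Dst, a linker of keratin to hemidesmosomes with forms in other tissues, fell as well. Of 9 desmosome genes, 2 rose and 2 fell in UUO_Si against sham, and 4 rose and 3 fell in UUO against sham (medians 0.21 and 0.24), and in UUO_Si both shares were near those of all genes. Pkp1, called higher in UUO, passed the filter on low counts only with the obstructed libraries, which favoured its call. Periplakin (Ppl) rose by 1.35 ± 0.24 in UUO_Si and 1.23 ± 0.24 in UUO, while envoplakin (Evpl) was at -0.68 ± 0.18 and -0.63 ± 0.18 and Pkp4 at -0.73 ± 0.08 and -0.86 ± 0.08.

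Of 14 transcription factors known to act on keratin genes, 13 were tested. Against sham, 6 rose in UUO_Si and 7 in UUO, and none fell (median log2 fold change 0.90 and 1.04), where 27.2% and 27.5% of all genes tested rose. Of those called, Sox9 passed the filter on low counts only with the obstructed libraries, which favoured its calls. Elf3, an epithelial ETS factor, was at 116 ± 8.86 CPM in UUO_Si, 113 ± 7.52 in UUO and 29.5 ± 3.30 in sham (edgeR's quasi-likelihood test, adjusted p = 2.74e-10 and 2.48e-10). It was named for the smallest p of the list in UUO against sham, so these p values are a description. Klf5 was at 24.2 ± 3.72, 30.3 ± 3.16 and 7.15 ± 1.85 CPM in the same order, and Klf4 and Ehf rose in both. Trp63, a transcription factor of basal cells, was at 0.97 ± 0.41 in UUO against sham and did not pass (adjusted p = 0.0534). Among 6 genes of other intermediate filaments, 4 rose in each obstructed group, against the same shares of all genes: vimentin (Vim), the filament of mesenchymal and dedifferentiated cells, was at 465.8 ± 35.8 CPM in UUO_Si, 568.5 ± 99.0 in UUO and 87.2 ± 14.8 in sham, and Lmna, Des and Nes rose by less.

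Markers of cells that could carry these keratins also differed between the groups. The 7 urothelial markers, which include the uroplakins of umbrella cells, summed to 26.6 to 97.2 CPM in UUO_Si (median 61.6), 33.1 to 190 CPM in UUO (median 115) and 12.3 to 30.5 CPM in sham. Against sham, 3 of 7 rose in UUO_Si and all 7 in UUO (median log2 fold change 1.40 and 2.60), where 27.2% and 27.5% of all genes tested rose. Of the 7, 5 passed the filter on low counts only with the obstructed libraries, which favoured their calls. Upk2 was at 0 in part of the sham libraries, and no marker was at 0 throughout a group. Psca was at 19.1 ± 7.52 CPM in UUO_Si, 32.2 ± 14.3 in UUO and 2.49 ± 1.27 in sham. In the diet contrast 7 of 7 were below 0 (median -0.76), as were 49.7% of all genes, and none passed. Of the 14 injured-tubule genes 13 rose in both groups against sham, again beside 27.2% and 27.5% of all genes, and their sum was 7759 to 17060 CPM in UUO_Si, 8380 to 16023 in UUO and 1512 to 1694 in sham. Havcr1, among those that rose, passed the filter only with the obstructed libraries, which favoured its calls. Of 11 genes of the collecting duct, whose cells also make simple keratins, 8 fell in each group, where 25.5% of all genes tested fell in UUO_Si and 26.4% in UUO, and 1 rose in UUO_Si, with sums of 284 to 418 CPM in UUO_Si, 287 to 354 in UUO and 569 to 681 in sham. Of 9 tested squamous genes 5 were called higher and 1 lower (Tgm1) in each group, beside 27.2% and 27.5% of all genes called higher, but 5 of the 9 passed the filter only with the obstructed libraries. Smooth muscle genes, present in the wall of the pelvis, summed to 558 to 774 CPM in UUO_Si, 746 to 1403 in UUO and 563 to 1054 in sham, and all 7 were below 0 in the diet contrast with none passing. The part of these cells in the keratin differences was not tested.

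Which keratins vary together with urothelial or injury markers was asked among the 12 obstructed kidneys. Every gene was centred on the mean of its own group, so differences between the group means do not enter. Differences between kidneys of the same group, in obstruction or in response to the diet, remain in these values. Each keratin was set against the mean standardised level of the urothelial list and of the injury list, 20 relations in all. Permutation p values were adjusted over these 20 alone. Other genes were not set against the lists, so no relation is read as particular to keratins. Krt18 had the closest relation with the urothelial list: Pearson's r was 0.90 (permutation p = 5.00e-05, adjusted p = 0.001) and Spearman's rho 0.90 (permutation p = 0.00043, adjusted p = 0.0043). It was 0.91 without UUO replicate 2 and UUO_Si replicate 3, the kidneys farthest from the median. Within groups, r was 0.92 in UUO_Si (exact permutation p = 0.00833, adjusted p = 0.167) and 0.95 in UUO (exact permutation p = 0.00417, adjusted p = 0.0417). UUO 2 and UUO_Si 3 were the kidneys with the lowest urothelial sums and were the lowest for Krt18 in their groups.

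Krt19 and Krt5 also passed by Pearson's r. For Krt19, r was 0.75 and rho 0.90 (adjusted permutation p = 0.0335 and 0.0043), and r was 0.74 without the 2 farthest kidneys. For Krt5, r was 0.75 and rho 0.69 (adjusted permutation p = 0.0335 and 0.100), and r was 0.49 without them, so this relation rested on those kidneys. Krt14 passed by rho alone, with r of 0.62 and rho of 0.78 (adjusted permutation p = 0.101 and 0.0293). Krt8 did not pass (r = 0.74, rho = 0.59, adjusted permutation p = 0.0646 and 0.215). Krt20 had r of 0.27 and rho of 0.24 (adjusted permutation p = 0.735 and 0.743), and r was -0.07 without the 2 farthest kidneys. No keratin passed with the injury list, where r ran from -0.23 to 0.47. Within UUO alone Krt5 did (r = 0.89, rho = 0.94, exact permutation p = 0.00278 and 0.0167, adjusted p = 0.0417 and 0.111), while r was -0.36 in UUO_Si; the difference between the groups was not tested. The relations share libraries and depth, and the share of all genes with relations as close is not given here. Without the 3 libraries coded RM6 or RM7, r was 0.90 for Krt18, 0.72 for Krt19 and 0.77 for Krt5 over 9 kidneys and none passed (adjusted permutation p = 0.0794, 0.117 and 0.146). Krt18 passed when any single obstructed kidney was left out, with r from 0.82 to 0.94, while Krt18 was the only keratin to pass without UUO_Si 2, UUO_Si 4, UUO 1, UUO 2, UUO 4 or UUO 5, and 5 keratins passed without UUO_Si 3.

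**Figure D4:**
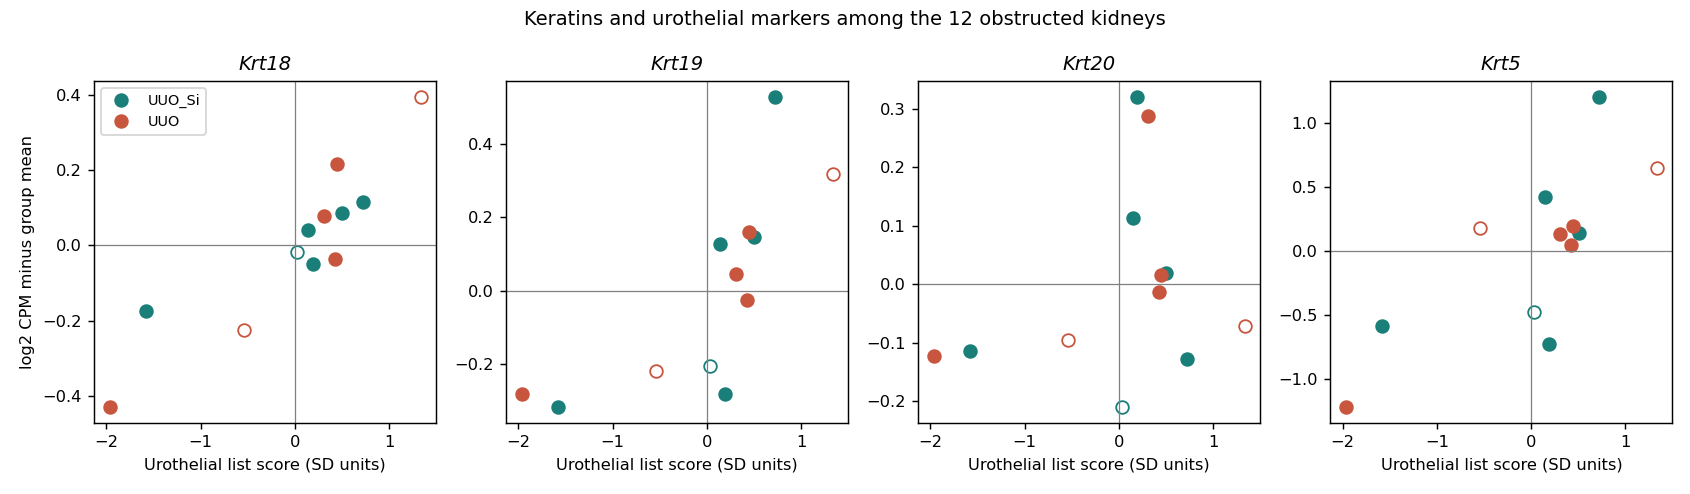
Level of Krt18, Krt19, Krt20 and Krt5 (log2 CPM minus the mean of the own group) against the urothelial list score (mean of standardised levels, SD units) in the 12 obstructed kidneys, UUO_Si and UUO; open circles are the 3 libraries with counts in most olfactory and vomeronasal receptor genes. The r with the score is 0.90 for Krt18 and 0.27 for Krt20, and the difference between them was not tested.

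Among themselves the keratins fell into looser and tighter pairs across the 12 centred kidneys, given here as a description with no test. Krt5 and Krt14, partners in basal cells, had r of 0.95, and the 6 pairs of basal keratins had a median r of 0.66 (0.32 to 0.95). The 6 pairs of simple keratins had a median of 0.68 (0.52 to 0.77), with 0.71 for Krt8 and Krt18. Krt19, a simple keratin, varied with Krt14 (r = 0.93) and Krt5 (r = 0.90) more closely than with Krt8 (r = 0.52). Krt20 had r from -0.20 to -0.03 with the 4 basal keratins, and among the simple ones 0.76 with Krt8 and -0.03 with Krt19. UUO_Si replicate 5 was the highest UUO_Si kidney for 8 of the 10 keratins, all but Krt8 and Krt20.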

How the data were processed

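Total RNA of kidney kept in RNAlater was sequenced after library preparation with a SMARTer Pico kit that keeps strand, per the labels' protocols. The authors deposited expected counts, that is, reads per gene with fractions where a read matched several genes; per library, 79.0% to 83.0% of values were whole. The build mm10 and the tools TopHat2 2.1.1 and Cuffdiff 2.2.1 are named in the submitters' processing notes, which do not give the counting program, annotation or strand setting used. All 15 libraries and all columns were used.

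Expected counts were rounded and tested with edgeR 4.0.16 (robust quasi-likelihood test, TMM, filterByExpr with a minimum count of 10) under R 4.3.3, in 1 fit of all libraries, with group means and no covariate. P values were adjusted with the Benjamini-Hochberg method over the 16752 genes tested, and the standard error was worked back from the F statistic. Log2 levels used a prior count of 2. Transcript lengths are those of the longest principal coding transcript in GENCODE M21, where all 10 keratins matched by symbol. The list score is the mean of standardised log2 levels, and permutation tests were two-sided, within groups, with 100000 resamples for 12 kidneys and all 720 orders for 6. Named beside the keratins are up to 4 members of each list with the smallest p in UUO against sham, every other keratin that passed the filter, and the 5 genes most alike in pattern; list members that went against their list and Trp63 were added after their values were seen. The keratins and the lists were chosen with earlier results of these data known. The steps were tested on simulated data. Alternatives were upper-quartile or RLE scaling, a minimum count of 30 or no filter, DESeq2 1.42.0, a fit of only the groups compared, removal of Rn45s and haemoglobin genes, a prior count of 0.5, a replicate block, and leaving out single libraries, the 4 libraries with receptor-gene counts or those coded RM6 and RM7. One listed gene is not reported here.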

Additional observations from a re-analysis of the deposited data

Results flagged for a closer look

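In groups of 6, a library was marked where its gap to the nearest other exceeded 0.625 of the range of the group (Dixon's criterion), which chance gives in about 1 of 20 groups; 3 of the 20 groups tested were marked. For Krt14, UUO_Si replicate 5 was at 55.4 CPM, with the next UUO_Si kidney at 26.8 CPM. For Krt17, UUO replicate 5 was at 19.1 CPM, with the next UUO kidney at 8.39 CPM. Its Krt17 count was fractional (302.5). For Krt20, UUO replicate 3 was at 58.8 CPM, with the next UUO kidney at 48.7 CPM.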

How the results depend on the processing

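Against sham, all 9 called keratins but Krt7 stayed called in each of 25 other settings. For UUO_Si against UUO, DESeq2 called 2 genes where edgeR called 0, and Krt7 and Krt8 changed sign close to 0: leaving out single libraries gave -0.0764 to 0.0603 for Krt7 and -0.0722 to 0.0483 for Krt8, and Krt8 was at 0.00633 without the 4 libraries with receptor-gene counts and at 0.00629 without those coded RM6 and RM7. Krt23 in UUO_Si against sham ran from -0.0301 to 0.327 when single libraries were left out. With a prior count of 0.5, the UUO minus sham difference was -2.26 for simple minus basal keratins and -3.98 for simple minus Krt20; the second was -4.51 without the 4 libraries with receptor-gene counts and -4.47 to -2.95 when single libraries were left out. The number of keratin relations passing was 0 without those 4 libraries and 0 without the libraries coded RM6 and RM7, which drop the same obstructed kidneys and leave the same 9, and 1 to 5 when single libraries were left out. The replicate numbers did not pair the samples throughout: for UUO_Si and UUO, r was 0.79 for replicate 6, in both of which receptor-gene counts were found, and -0.55 to 0.21 for the others, with 1 of 6 UUO_Si samples closest to its own number. Against sham, r was -0.0063 to 0.0857 for UUO_Si (2 of 3 closest) and -0.17 to 0.11 for UUO (1 of 3). With a replicate block 8268, 8433 and 0 genes were called in UUO_Si against sham, UUO against sham and UUO_Si against UUO. The sham group of 3 libraries, with the lowest totals, limits what can be said of keratins near 0 there.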

Other observations

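The genes most alike in pattern to each set, over the 12 obstructed kidneys centred on their group means, are given as a description among 12790 genes with a mean of at least 5 CPM. For the mean of the simple keratins these were Sfn (r = 0.92), Nfyc (0.92), Ivl (0.91), Psca (0.90) and Map1b (0.90). Sfn, an epithelial 14-3-3 protein, was at 63.8 CPM in UUO_Si, 67.9 CPM in UUO and 11.5 CPM in sham. For the mean of the basal keratins they were Anxa8 (r = 0.94), Capn13 (0.87), Hunk (0.87), Col17a1 (0.87) and Sprr2a3 (0.86). Col17a1, a collagen of hemidesmosomes, was at 15.2 CPM in UUO_Si, 17 CPM in UUO and 6.0 CPM in sham. For Krt20 they were Osbp (r = 0.88), Hspb1 (0.87), Slc6a6 (0.87), Med4 (0.87) and Exoc8 (0.86), of which Osbp was at 124 CPM in UUO_Si, 117.3 CPM in UUO and 150 CPM in sham.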
